A study of Mus musculus with 12 samples.

Results

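The colony-stimulating factors are secreted proteins that keep myeloid cells alive, make them divide and set how they mature. Csf1 encodes macrophage colony-stimulating factor (M-CSF), Csf2 encodes granulocyte-macrophage colony-stimulating factor (GM-CSF) and Csf3 encodes granulocyte colony-stimulating factor (G-CSF). The receptor genes are Csf1r, a receptor tyrosine kinase, Csf2ra, the GM-CSF-binding alpha chain, Csf2rb, the common beta chain that GM-CSF, interleukin-3 and interleukin-5 share, Csf2rb2, the second mouse beta chain, which serves interleukin-3, and Csf3r, a single-chain cytokine receptor. Macrophages depend on the CSF1 receptor for survival, while GM-CSF and G-CSF are best known as factors that activated macrophages and stromal cells release during inflammation.

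These 8 genes, 3 ligand genes and 5 receptor genes, were taken by name from 19938 genes measured on 1-colour Affymetrix whole-transcript arrays. Each of the 8 had 1 probe set that names it alone, so no choice among probe sets was needed. The cells were peritoneal macrophages of female mice, flushed from the abdominal cavity, plated for 2 h and then cultured for 4 h with 1 µg/ml lipopolysaccharide (LPS, a bacterial cell-wall component that activates macrophages) or without it. Wild-type cells were C57Bl/6, and knockout cells were Nfkbiz-/-, which lack IκBζ, a nuclear protein that works with NF-κB at a subset of inflammatory promoters. The 4 groups, untreated wild type, LPS-treated wild type, untreated knockout and LPS-treated knockout, held 3 arrays each, which are called replicates 1 to 3 below as in the titles. The labels give no sort or gate, no age, and no statement on whether 3 mice or 1 pool of cells lie behind a group, so the spread that the p-values rest on may be technical. In such bulk samples, fewer cells of a type and less RNA per cell cannot be told apart.

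All values are the authors' RMA intensities on a linear scale, and differences are on the log2 scale. A gene was called when limma's moderated test, adjusted by Benjamini-Hochberg over all 19938 genes, gave an adjusted p under 0.05. Levels are compared between groups for 1 gene at a time, because probe sets differ in brightness for the same amount of RNA. Where a gene's place among all genes is given, it describes how bright its probe set was, and not its amount of RNA beside other genes.

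The targeted gene, Nfkbiz, was measured first as a check of the labels. In wild type the 3 arrays gave 462.6, 430.7 and 406.3 untreated and 3371, 3786 and 3079 with LPS. The knockout arrays gave 266.9, 285.6 and 274.4 untreated and 1568, 1335 and 1634 with LPS. Every knockout array lay below every wild-type array of the same treatment, by 1.17 with LPS (limma adjusted p = 7.23e-05) and by 0.65 without it (0.0401) on the log2 scale. Over 12 fits that each left out 1 array, the difference was called in 12 with LPS and in 4 without it. The position of this probe set within the gene, inside or outside the deletion, is unknown here, and the signal left in knockout cannot be read as intact transcript.

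Of 6 macrophage markers, 4 were bright in all 4 groups, with group means of 5182 to 7808 for Adgre1, 5521 to 8709 for Cd68, 12769 to 15361 for Lyz2 and 6556 to 8891 for Itgam. Mertk had group means of 1793 to 4351. Fcgr1 varied widely between replicates in 3 of the groups, at 820 ± 867 in LPS-treated wild type, 1274 ± 1055 in LPS-treated knockout and 1271 ± 1062 in untreated knockout, against 945 ± 11.5 in untreated wild type (SD, n = 3 each). The array of LPS-treated knockout replicate 2 stood furthest from its group, with a root-mean-square deviation of 0.227 log2 units from the group means against 0.0974 to 0.194 for the other 11 arrays. An 11-gene list of interferon-stimulated genes was lower on LPS-treated wild-type replicate 3 (mean log2 intensity 9.59) than on replicates 1 and 2 (11.5 and 12.5). It was higher on untreated knockout replicate 3 (10.3) than on the other 2 of that group (8.50 and 8.23).

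Promoter windows are shown for Csf2, which differed strongly between the genotypes, for Csf1, which did not, and for Csf3r, the receptor gene called between them. RefSeq's table (build GRCm38.p6) held windows for 5 of the 8 genes, and Csf3, Csf1r and Csf2rb were not among them. The windows run from 250 bases before to 50 after the start it gives. Each was searched on both strands for the NF-κB motif, the AP-1 motif TGANTCA and the C/EBP motif TTGCNNAA, and capitals mark a match in the 250 bases before the start, printed 5′ to 3′ in the direction of the gene for 3 members. They lie at chr3:107760470-107760719 (minus strand) for Csf1, chr11:54249900-54250149 (minus strand) for Csf2 and chr4:126024409-126024658 (plus strand) for Csf3r.
Csf1: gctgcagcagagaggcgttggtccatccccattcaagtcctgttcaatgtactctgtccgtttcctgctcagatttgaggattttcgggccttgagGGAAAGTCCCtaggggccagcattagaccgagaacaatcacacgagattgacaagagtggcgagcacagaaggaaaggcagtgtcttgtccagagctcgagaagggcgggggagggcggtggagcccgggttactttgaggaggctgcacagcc
Csf2: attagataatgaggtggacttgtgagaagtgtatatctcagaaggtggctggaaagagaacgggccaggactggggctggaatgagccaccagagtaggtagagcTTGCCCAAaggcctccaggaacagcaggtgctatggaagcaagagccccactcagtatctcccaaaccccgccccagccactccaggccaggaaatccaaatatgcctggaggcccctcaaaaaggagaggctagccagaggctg
Csf3r: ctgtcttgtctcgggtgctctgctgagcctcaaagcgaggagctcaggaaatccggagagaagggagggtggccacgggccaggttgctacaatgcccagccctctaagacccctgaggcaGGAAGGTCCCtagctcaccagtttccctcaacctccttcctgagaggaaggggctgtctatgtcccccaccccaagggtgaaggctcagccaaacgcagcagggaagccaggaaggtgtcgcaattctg
The Csf1 window had 1 NF-κB match, 154 to 145 bases before the start, and the Csf3r window 1, 129 to 120 bases before it. The Csf2 window had 1 C/EBP match, 145 to 138 bases before the start, and neither of the other motifs. The start that the table gives for Csf2 may lie upstream of the one most transcripts use, so this window may not hold the proximal promoter of Csf2, and its positions count from the table's start alone. The windows of Csf2ra and Csf2rb2 held no match. Of 32851 RefSeq windows of this length, 8.46% held the NF-κB motif, 7.81% the AP-1 motif and 10.8% the C/EBP motif. A match is a description of letters and not of binding, and no match says only that these letters are not in this window.

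**Figure D1:**
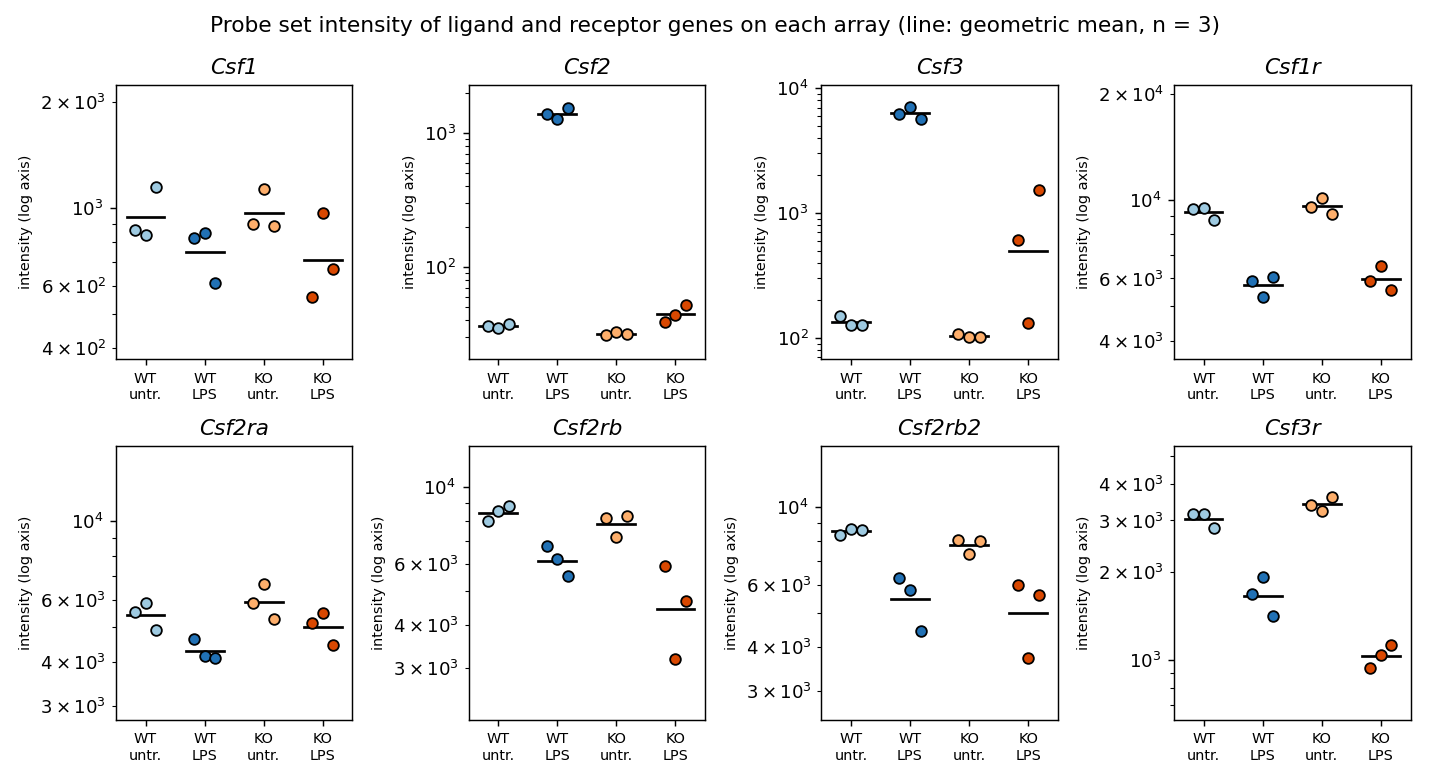
Intensity (log axis, its own range in each panel) of the 8 ligand and receptor genes on each of the 12 arrays, with points for replicates 1 to 3 from left to right and a line at the geometric mean of each group of 3. Csf2 and Csf3 are highest in LPS-treated wild type, the 3 LPS-treated knockout points of Csf3 spread from 132.6 to 1525, and Csf1r and Csf3r are lower with LPS in both genotypes.

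In wild-type cells LPS raised Csf2 and Csf3 and lowered 4 of the 5 receptor genes, and Csf1 was not called. Of the 8 genes, 2 were called higher and 4 lower, where 9.53% of all genes tested were called higher and 18.5% lower in this comparison. The groups did not overlap for 7 of the 8 genes, as for 47.5% of all genes. The median log2 difference was 5.27 over the 3 ligand genes and -0.64 over the 5 receptor genes, beside 0.04 over all genes tested.

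Csf2 had the smallest p-value of all genes in this comparison. It read 36.2, 34.69 and 37.12 in untreated wild type and 1390, 1269 and 1531 with LPS, or 36.0 ± 1.22 and 1397 ± 131 (SD, n = 3 each). No LPS-treated array came near an untreated one, and the difference was 5.27 (SE 0.11, limma adjusted p = 1.61e-10), or 38.7-fold. The untreated values were dim, with 12.5% of genes at or below the Csf2 mean in that group, and a value that dim can understate a fold change.

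Csf3 rose from 148.8, 127.8 and 126.3 to 6222, 7082 and 5704, or from 134 ± 12.6 to 6336 ± 696 (SD, n = 3 each). Again the groups lay far apart, with a difference of 5.56 (SE 0.61, limma adjusted p = 3.93e-05), or 47.1-fold. Its SE was larger than that of Csf2 because the fit pools the spread of all 4 groups, and the LPS-treated knockout arrays of Csf3 were far apart.

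Csf1 read 866.1, 835.8 and 1141 in untreated wild type and 817.3, 846.3 and 609.5 with LPS. These ranges overlapped, and the difference of -0.32 (SE 0.20) was not called (limma adjusted p = 0.270). No rise like that of the other 2 ligand genes was seen for this ligand of the receptor that macrophages depend on.

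Among the receptors, Csf1r fell from 9434, 9532 and 8778 to 5894, 5316 and 6047. All 3 LPS-treated arrays lay below all 3 untreated ones, by 0.69 on the log2 scale (difference -0.69, SE 0.08, limma adjusted p = 6.85e-05). Csf3r, the G-CSF receptor gene, fell from 3150, 3167 and 2830 to 1675, 1921 and 1417 (difference -0.88, SE 0.11, adjusted p = 1.06e-04), also without overlap. RefSeq's gene table also lists a pseudogene of Csf1r, and its share of the Csf1r signal was not tested.

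The GM-CSF receptor chains had smaller differences. Csf2ra went from 5527, 5883 and 4914 to 4639, 4158 and 4101 (difference -0.34, SE 0.11, limma adjusted p = 0.0386). Although the groups did not overlap, this call was kept in only 6 of 12 fits that each left out 1 array. It was lost without LPS-treated wild-type replicate 2 or 3, untreated wild-type replicate 1 or 2, or replicate 1 of either knockout group, and with arrays centred on their 75th percentile the difference was -0.18 (adjusted p = 0.181).

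Csf2rb went from 7983, 8530 and 8806 to 6749, 6180 and 5524, and its difference of -0.46 (SE 0.18) was not called in the 12-array fit (limma adjusted p = 0.0755). The wild-type groups did not overlap, and the gene was called when only the 6 wild-type arrays were fitted (adjusted p = 0.00577) or when LPS-treated knockout replicate 1 or 2 was left out. Csf2rb2 fell from 8340, 8632 and 8574 to 6299, 5817 and 4455 (difference -0.64, SE 0.17, adjusted p = 0.0126). Csf2rb and Csf2rb2 are near-identical neighbouring copies, so their probe sets may share signal and their separate values are uncertain. Over the 12 arrays their log2 intensities had a Pearson r of 0.939, given as a description.

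In knockout cells LPS again called Csf2 and Csf3 higher and 4 receptor genes lower, with differences of 0.49 for Csf2 and 2.26 for Csf3. The difference from the wild-type response passed the test for Csf2 and not for Csf3 (limma adjusted p = 0.122). The background was wider here, with 21.9% of all genes called higher and 23.8% lower. Treated and untreated arrays did not overlap for 6 of the 8 genes, as for 53.7% of all genes. The median difference was 0.49 over the ligand genes and -0.68 over the receptor genes, beside 0.07 over all genes tested.

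Csf2 read 30.67, 32.61 and 31.21 in untreated knockout and 38.54, 43.29 and 52.24 with LPS. All 3 treated arrays lay above the untreated ones, by 0.49 (SE 0.11, limma adjusted p = 0.0028) or 1.41-fold. Its probe set stayed dim, with 15.4% of genes at or below its mean in LPS-treated knockout, against 91.2% in LPS-treated wild type.

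Csf3 read 107.4, 101.4 and 102.2 in untreated knockout and 607.4, 132.6 and 1525 with LPS. Every treated array lay above the untreated ones, but replicate 2 by little and replicate 3 by far. The difference was 2.26 (SE 0.61, limma adjusted p = 0.0107), or 4.80-fold. It was 3.22 without LPS-treated knockout replicate 2 and 1.45 without replicate 3, and a fit of the 6 knockout arrays alone did not call it (adjusted p = 0.0546).

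The standard deviation of Csf3 over the LPS-treated knockout arrays was 1.78 log2 units, and 99.9% of all genes had a standard deviation at or below it in that group. In LPS-treated wild type it was 0.16, which 74.8% of genes did not exceed. Mast cell markers varied over the same 3 arrays in the same order as Csf3. The mean log2 intensity of all 6 markers on the list was 7.36, 6.43 and 8.05 on LPS-treated knockout replicates 1 to 3, and Mcpt4, a mast cell protease gene, read 265.4, 86.2 and 648.4. This order was not particular to mast cells. The B cell (7.49, 6.87 and 7.57), macrophage, large peritoneal macrophage and NK cell marker lists had it too, over narrower ranges. The T cell, neutrophil, eosinophil, dendritic cell and mesothelial or stromal lists did not.

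Summed over the 6 mast cell markers, intensities ran from 596 to 2320 in LPS-treated knockout, 869 to 2694 in untreated knockout, 607 to 923 in LPS-treated wild type and 706 to 906 in untreated wild type. The untreated knockout arrays also spread widely in these markers, with Csf3 between 101.4 and 107.4 on all 3. The markers' part in the Csf3 result was not tested.

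Csf1 read 898.2, 1132 and 884.6 in untreated knockout and 557.3, 964.3 and 669.6 with LPS. The ranges overlapped through LPS-treated replicate 2, and the difference of -0.44 (SE 0.20) was not called (limma adjusted p = 0.0948). Within the knockout, same-numbered treated and untreated arrays deviated together, and with the replicate number as a block on these 6 arrays Csf1 was called lower by the same amount (adjusted p = 0.0133).

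Csf3r had the lowest response of the 8 genes in knockout cells. It fell from 3381, 3237 and 3603 to 936.9, 1043 and 1125, with a difference of -1.72 (SE 0.11, limma adjusted p = 6.41e-07). Csf1r fell from 9596, 10130 and 9122 to 5892, 6527 and 5580 (difference -0.68, adjusted p = 4.71e-05), close to its wild-type response. In both genes all treated arrays lay below all untreated ones.

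Csf2rb fell from 8175, 7182 and 8240 to 5933, 3179 and 4676 (difference -0.82, SE 0.18, limma adjusted p = 0.0029). Csf2rb2 fell from 8065, 7362 and 8004 to 6004, 3728 and 5614 (difference -0.64, SE 0.17, adjusted p = 0.0086). Replicate 2 was the lowest treated array for both beta chain genes, and both calls held in all 12 fits that left out 1 array. Csf2ra, at 5850, 6658 and 5268 against 5135, 5496 and 4452, had overlapping groups and was not called (difference -0.24, adjusted p = 0.0988), except with arrays centred on their median (adjusted p = 0.0434) or with the replicate number as a block (0.0366).

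**Figure D2:**
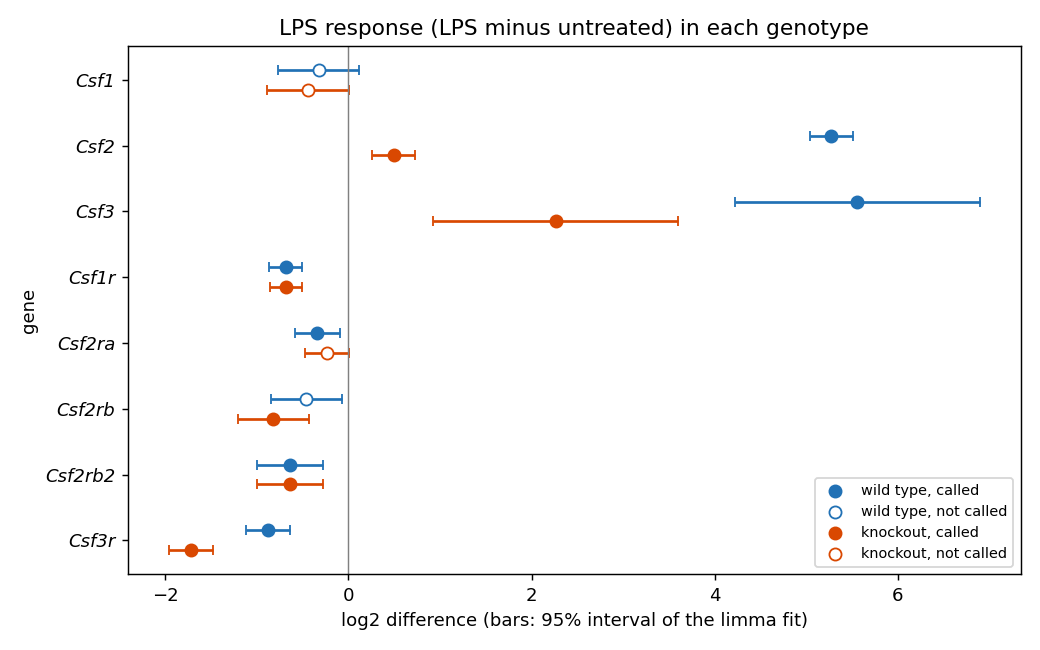
LPS minus untreated log2 difference of each gene in wild type (blue) and knockout (orange), with 95% intervals of the limma fit and filled points for called genes. Csf2 stands at 5.27 in wild type and 0.49 in knockout, Csf3 at 5.56 and 2.26, and Csf3r at -0.88 and -1.72.

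Between the genotypes under LPS, Csf2, Csf3 and Csf3r were lower in knockout and the other 5 genes were not called. Here 3.28% of all genes tested were called higher in knockout and 4.87% lower, and 3 of the 8 members were called lower and 0 higher. The genotypes did not overlap for 3 of the 8 members, as for 24.5% of all genes. The median difference was -3.67 over the ligand genes and -0.13 over the receptor genes, beside -0.01 over all genes tested.

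The Csf2 difference was the lowest of all 19938 genes. At 44.7 ± 6.96 in knockout against 1397 ± 131 in wild type (SD, n = 3 each), it was 31.4-fold lower (log2 difference -4.97, SE 0.11, 95% interval -5.21 to -4.74, limma adjusted p = 3.15e-10). LPS-treated knockout lay closer to untreated wild type, at 36.0 ± 1.22, than to LPS-treated wild type. Without each array in turn the difference ran from -5.09 to -4.87.

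The Csf3 difference was the third lowest of all genes, at 755 ± 708 in knockout against 6336 ± 696 in wild type (SD, n = 3 each). The highest knockout array, 1525, lay below the lowest wild-type array, 5704, and the log2 difference was -3.67 (SE 0.61, 95% interval -5.01 to -2.33, limma adjusted p = 0.00463). It was -2.71 without LPS-treated knockout replicate 2 and -4.47 without replicate 3, and was called in all 12 fits that left out 1 array. With only the 6 LPS-treated arrays in the fit it was not called (adjusted p = 0.0660).

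Csf1 did not differ detectably, at 730 ± 210 in knockout and 758 ± 129 in wild type with LPS (SD, n = 3 each). The log2 difference was -0.08 (SE 0.20, limma adjusted p = 0.895), with a 95% interval of -0.52 to 0.37. That interval lies wholly above the intervals of Csf2 and Csf3.

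Set against Csf1 on the same array, both other ligand genes were lower in knockout. The log2 ratio of Csf2 to Csf1 under LPS was 0.89 ± 0.39 in wild type and -4.00 ± 0.42 in knockout (SD, n = 3 each), a difference of -4.90. For Csf3 to Csf1 it was 3.07 ± 0.15 and -0.52 ± 2.10, a difference of -3.59. Neither ratio overlapped between the genotypes, and the two-sided exact permutation p was 0.1 for both, the smallest that 3 against 3 arrays allow. A ratio of 2 probe sets shows unequal change between the genotypes and not how much of each RNA there was.

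Csf3r was the only receptor gene called between the genotypes. The LPS-treated knockout arrays lay between 936.9 and 1125, below the wild-type range of 1417 to 1921, and the difference was -0.68 (SE 0.11, 95% interval -0.93 to -0.44, limma adjusted p = 0.00385). It was the 392nd lowest difference of all genes. Neutrophils also express Csf3r, and the mean log2 intensity of the 8 neutrophil markers on the list was between 6.74 and 6.94 on all 12 arrays, with Ngp at group means of 28.3 to 32.4 and Ly6g at 65.6 to 85.7. Summed over the list the intensities were 2992 to 3786 in LPS-treated knockout and 3806 to 4733 in LPS-treated wild type, most of it from Mmp8, and the part of these markers in the Csf3r result was not tested.

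The remaining receptor genes had log2 differences of 0.06 for Csf1r (95% interval -0.12 to 0.24), 0.22 for Csf2ra (-0.02 to 0.46), -0.13 for Csf2rb2 (-0.49 to 0.24) and -0.46 for Csf2rb (-0.85 to -0.07). None was called by limma, with adjusted p-values of 0.768, 0.274, 0.759 and 0.142. The Csf2rb value rests partly on LPS-treated knockout replicates 1 and 2, since it was -0.67 and called without replicate 1 (adjusted p = 0.0243) and -0.22 without replicate 2.

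Without LPS, none of the 8 genes was called between the genotypes by limma, and 0 of 8 had an unadjusted p under 0.05. The background was also low, with 0.0351% of all genes called higher in knockout and 0.0401% lower. Csf2 was 31.5 ± 1.00 in knockout and 36.0 ± 1.22 in wild type, and Csf3 was 104 ± 3.28 and 134 ± 12.6 (SD, n = 3 each). Both were lower on every knockout array than on any wild-type array, by 0.19 and 0.37 on the log2 scale (differences -0.19 and -0.37, adjusted p = 0.650 and 0.893). The SE for Csf3, 0.61, pools all 4 groups, including LPS-treated knockout with a standard deviation of 1.78 log2 units. In untreated wild type and knockout that deviation was 0.13 and 0.05, so the Csf3 p-value does not measure the spread of the untreated arrays. Csf3r was 3407 ± 185 in knockout and 3049 ± 190 in wild type, so its order without LPS was opposite to that with LPS (difference 0.16, adjusted p = 0.710). In this comparison 4 of the 8 genes had groups that did not overlap, Csf2, Csf3 and Csf2rb2 lower and Csf3r higher in knockout, as had 16.3% of all genes.

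**Figure D3:**
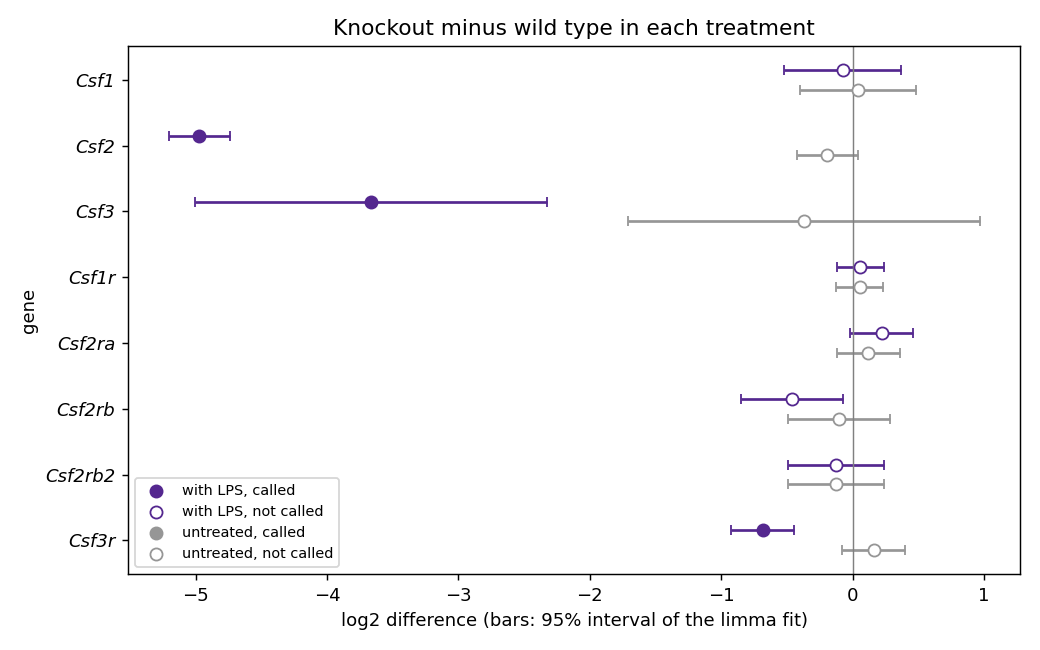
Knockout minus wild type log2 difference of each gene with LPS (purple) and untreated (grey), with 95% intervals of the limma fit and filled points for called genes. With LPS, Csf2 (-4.97), Csf3 (-3.67) and Csf3r (-0.68) are called, and no untreated point is.

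The difference of the LPS responses, knockout minus wild type, was called for Csf2 and Csf3r. In this comparison 0.301% of all genes tested were called with a higher response in knockout and 0.446% with a lower one, and the 8 members counted 0 and 2. The median was -3.30 over the ligand genes and -1.78e-04 over the receptor genes, beside 0.02 over all genes tested. Csf2 had the lowest value of all genes, -4.78 (SE 0.15, limma adjusted p = 2.62e-08), and was called in all 12 fits that left out 1 array.

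Csf3 had the second lowest value, -3.30 (SE 0.87), but was not called (limma adjusted p = 0.122). It was called without LPS-treated knockout replicate 2 or 3, each of which narrows the spread in that group. Csf3r, at -0.85 (SE 0.16, adjusted p = 0.0361), was called in only 3 of 12 such fits and was lost with the replicate number as a block (adjusted p = 0.0672). That block lets same-numbered arrays of both genotypes shift together, while their deviations from the group means correlated at only -0.255 to 0.087 between the genotypes. Csf1 (-0.12, 95% interval -0.74 to 0.51), Csf1r (0.00), Csf2ra (0.10), Csf2rb (-0.36) and Csf2rb2 (-1.78e-04) were not called.

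Of the related genes, Il34 encodes the other ligand of the CSF1 receptor. Il3 and Il5 encode ligands that share the common beta chain with GM-CSF, and Il3ra and Il5ra encode the alpha chains of their receptors. Il3 and Il5 were dim in all groups, with group means of 31.4 to 36.0 and 28.1 to 31.1. Il34 read 88.5 to 114 and Il5ra 35.8 to 51.4 by group mean. Il3ra read higher in knockout, at 806 with LPS and 796 without, against 646 and 588 in wild type, and its difference under LPS of 0.32 was not called (limma adjusted p = 0.0690). In knockout cells with LPS, 2 of the 5 were called higher, where 21.9% of all genes were, and 3 had an unadjusted p under 0.05. These were Il34 (0.31, limma adjusted p = 0.0329) and Il5ra (0.49, adjusted p = 0.0478), called in 8 and 2 of 12 fits that left out 1 array. Neither was called with arrays centred on the median (adjusted p = 0.0651 and 0.0789), and Il34 was not called without LPS-treated knockout replicate 1 or 2 or untreated knockout replicate 2 or 3, while among those 12 fits Il5ra was called only without untreated wild-type replicate 1 or LPS-treated knockout replicate 2. None of these 5 was called by limma in wild-type cells with LPS or between the genotypes in either treatment, and 1 of the 5 had an unadjusted p under 0.05 in each of these 3 comparisons. The wild-type result rests on the scaling. With arrays centred on the 75th percentile, 4 of the 5 were called higher with LPS in wild type. Of all 19938 genes, 7416 were called higher under that scaling, against 1900 as reported.

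Of 23 measured genes that carry the receptors' signal, 3 were called higher and 11 lower with LPS in wild type, where 9.53% of all genes were called higher and 18.5% lower. The split rests on the scaling, since with arrays centred on the 75th percentile it was 7 higher and 9 lower, and with quantile normalization 5 and 10. Jak2, the kinase bound to the beta chain and to Csf3r, was higher by 2.11 (limma adjusted p = 3.21e-07). The other 2 that rose were Syk (0.58) and Stat5a (0.56), named after their values were seen. The inhibitory phosphatase gene Inpp5d (-1.52), the kinase gene Pik3cd (-1.01) and Akt1 (-0.99, adjusted p = 1.04e-05) were among those that fell.

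Between the genotypes under LPS, 1 signalling gene was called higher and 5 lower in knockout, where 3.28% of all genes were called higher and 4.87% lower. Stat5a and Stat5b, the main transcription factors that GM-CSF activates, were both lower, Stat5a at 641 against 1057 (difference -0.73, limma adjusted p = 8.52e-04) and Stat5b at 433 against 602 (-0.48, adjusted p = 0.00295). Pik3cg, a kinase gene of myeloid cells, was lower by 0.80 (-0.80, adjusted p = 0.00169), and Ptpn6, which encodes an inhibitory phosphatase, by 0.65 (-0.65, adjusted p = 0.0335). The Ptpn6 call was lost in 5 of 12 fits without 1 array (LPS-treated replicate 1 or 3 of either genotype, or untreated wild-type replicate 3). Shc1 (-0.40) and Tyk2 (0.45), named after their values were seen, complete the 6, and Shc1 was called in 4 of 12 such fits.

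Of 19 genes known as feedback regulators or targets of these receptors, 6 were called higher and 1 lower with LPS in wild type (9.53% and 18.5% of all genes), or 9 and 1 with arrays centred on the 75th percentile. Ccnd2, which encodes a cyclin, rose by 2.53 (limma adjusted p = 1.20e-04), and Socs1, a feedback inhibitor gene, by 1.42 (adjusted p = 0.0023). The 1 that fell was Egr2 (-2.41). Cish (1.30) and Pim1 (1.23), classic STAT5 targets named after their values were seen, also rose.

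Under LPS 3 of the 19 were higher and 2 lower in knockout (3.28% and 4.87% of all genes). Ccl17, a chemokine gene that GM-CSF induces, was 666 ± 371 in knockout and 5917 ± 2202 in wild type (SD, n = 3 each; difference -3.29, limma adjusted p = 0.00537). Its mean log2 intensity went with LPS from 11.1 to 12.5 in wild type and from 7.62 to 9.18 in knockout. The wild-type response of 1.42 was not called (limma adjusted p = 0.0860). Ccl17 was also lower in knockout without LPS, at 224 against 2295, a difference that was not called. Plau, the urokinase gene, was higher, at 1943 against 468 (1.97, adjusted p = 0.00169), as were the early growth response genes Egr1 (1.07, adjusted p = 0.00687) and Egr2 (1.05, named after its values were seen). Pim2 (-0.54), a kinase gene also named after its values were seen, was lower, while Egr2 and Pim2 were called in only 2 and 6 of 12 fits that left out 1 array.

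Of 10 measured genes for transcription factors that act at the receptor genes, 2 were called higher and 3 lower with LPS in wild type (9.53% and 18.5% of all genes). Cebpa, which encodes a factor that drives Csf3r and other myeloid receptor genes, had the lowest difference of the list, -2.17 (limma adjusted p = 6.01e-07). Fli1 (-1.48) and Klf4 (-0.69, adjusted p = 0.0110) also fell. Klf4 was lower in all 12 fits that left out 1 array, but its call was lost without LPS-treated wild-type replicate 1 (limma adjusted p = 0.0533). Ets2 (1.13) rose, as did Cebpb (0.53, again named after its values were seen), whose call was lost without replicate 2 of either wild-type group.

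Under LPS, 2 of the 10 were higher and 2 lower in knockout (3.28% and 4.87% of all genes). Klf4, a factor gene of monocyte differentiation, was 547 against 226 (1.28, limma adjusted p = 0.00142), and Cebpd, a C/EBP gene, was lower by 0.94 (-0.94, adjusted p = 6.27e-04). The Cebpd group means were 207 untreated and 202 with LPS in wild type, and 184 and 105 in knockout. Cebpa was lower by 0.55 (-0.55, adjusted p = 0.0289), a call that was lost without any 1 of the LPS-treated wild-type arrays or LPS-treated knockout replicate 2 or 3. Fli1, at 0.50, was higher and was named after its values were seen. Irf8, at -0.50, was not called (adjusted p = 0.126).

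CSF1R is cut from the cell surface by the protease that Adam17 encodes, with Rhbdf1 and Rhbdf2 encoding its partners and Timp3 an inhibitor. With LPS in wild type, Rhbdf2 rose by 1.24 (limma adjusted p = 2.18e-06) and Adam17 fell by 0.38 (adjusted p = 0.0426), a call kept in 4 of 12 fits that left out 1 array. In that comparison 9.53% of all genes were called higher and 18.5% lower. Between the genotypes under LPS the 4 genes had differences of 0.07 to 0.39 and none was called by limma, where 3.28% of all genes were called higher and 4.87% lower. Still, 3 of the 4 had an unadjusted p under 0.05.

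Across the 6 lists of related genes, message decay factors included, 72 of 78 genes were measured. With LPS, 8 were called higher and 10 lower in knockout than in wild type, beside 3.28% and 4.87% of all genes, with a median difference of -0.08 beside -0.01 over all genes tested. Without LPS 0 were called by limma, while 13 had an unadjusted p under 0.05. In the difference of responses Klf4 alone was called (1.33, limma adjusted p = 0.0361), in 4 of 12 fits that left out 1 array, while 22 of the 72 had an unadjusted p under 0.05. The lists and the 8 members were chosen with earlier results of these data known, so these counts are a description.

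**Figure D4:**
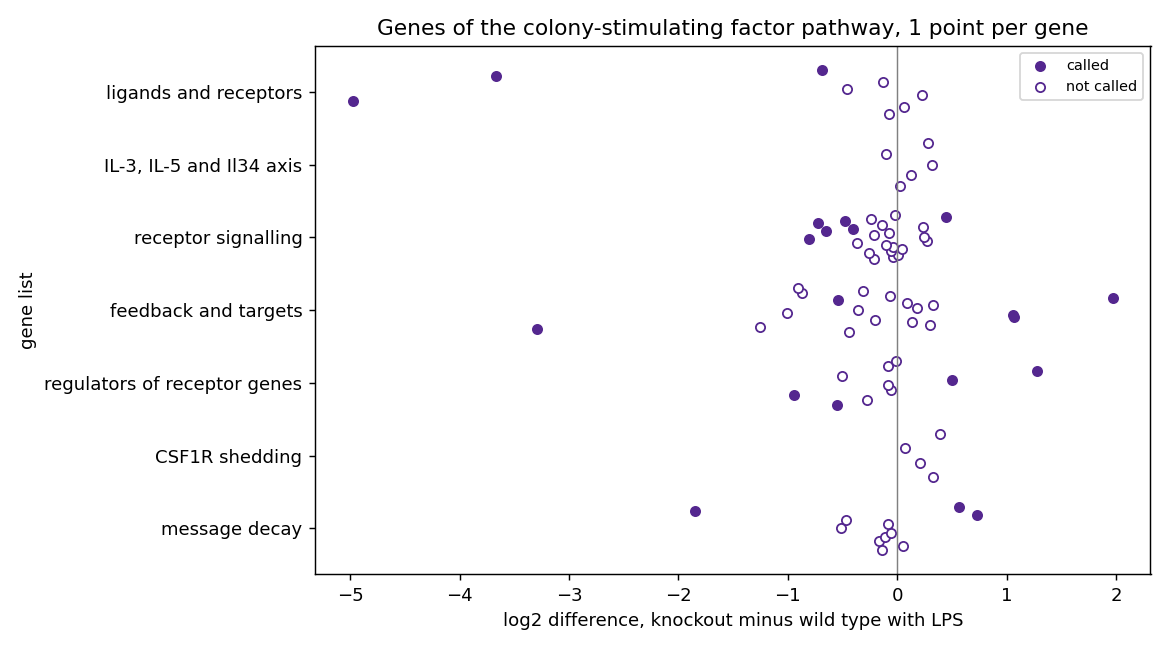
Knockout minus wild type log2 difference with LPS for the 8 ligand and receptor genes and for 6 lists of related genes, 1 point per gene, spread vertically within a list for legibility, filled where called by limma. Csf2 (-4.97), Csf3 (-3.67) and the target gene Ccl17 (-3.29) are the lowest points, and Plau (1.97) is the highest.

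Among 2457 genes whose highest group mean was at least 2-fold the lowest, the genes most like Csf2 by Pearson r of log2 intensity over the 12 arrays were Tpbg (0.991), Acvr1b (0.984), Zfp719 (0.984), Mtf2 (0.983) and Dtx2 (0.975). Those most like Csf3 were Il1bos (0.988), Has1 (0.986), Slc9a3r1 (0.985), U90926 (0.981) and Cdh6 (0.976). The best for Csf1 were lower, Dnajc15 (0.809), H2bc4 (0.805), Lyplal1 (0.795), Lipa (0.791) and Gpr137b (0.787). The points share arrays and the 4 groups, so these are descriptions. Tpbg, the nearest to Csf2, differed by 3.05 with LPS in wild type and by 0.44 in knockout on the log2 scale.

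Scaling bears on the direction of small differences. With each array centred on its 75th percentile, the median of all genes moved from 0.04 to 0.19 for LPS in wild type and from 0.07 to 0.28 in knockout, and the share of called genes that were higher went from 34% to 72.8% and from 47.9% to 76.6%. Of the receptor genes called lower, Csf2ra in wild type lost its call under that scaling, and Csf1r, Csf2rb2 and Csf3r in both genotypes and Csf2rb in knockout kept theirs.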

How the data were processed

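Per the submitters' processing notes, the authors used Affymetrix Expression Console 1.1 and RMA to make the deposited intensities, which are linear and hold 1 value for each probe set. No settings or genome build were found in the labels or headers. RMA commonly includes quantile normalization, which would hide a change of most transcripts in 1 direction. Log2 of the deposited intensity was taken with no pseudocount, and the probe set with the highest mean was kept for each of 19938 genes with 1 symbol (21789 of 35556 probe sets had 1, 1621 several and 12146 none). Array medians were 110.4 to 118.7 and correlations within groups 0.982 to 0.996, no pair of arrays was identical, and the number of arrays limits the precision. The design had assumed deposited log2 values.

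The fit used limma 3.58.1 in R 4.3.3 (lmFit, eBayes, two-sided) with 4 group means, 8 residual degrees of freedom and 5 contrasts, adjusted by Benjamini-Hochberg over all genes, and was tested on simulated data. Deviations from the group means of same-numbered arrays correlated at 0.322, 0.568 and 0.459 within the knockout, so the replicate number was taken to pair its treated and untreated arrays. In wild type they correlated at -0.07, 0.143 and 0.359, and between the genotypes at -0.255 to 0.087. Pairing comes from this check, since the labels give only numbers, and the reported fit of 4 group means did not use it. In fits of the 6 knockout arrays, 3509 genes were called higher and 4882 lower with the block, and 2907 and 4260 without it. The replicate block over all arrays gives same-numbered arrays of both genotypes a shared shift, which the correlations between the genotypes do not bear out. Named beyond the members were Nfkbiz, marker genes, up to 4 genes per list with the largest absolute difference in 2 comparisons, all related ligands and receptors, and the 5 genes nearest to each ligand gene, passing over predicted genes, small RNAs and other members. The members and lists were chosen with earlier results of these data known. Alternatives were other scalings, a filter on dim genes (log2 of at least 6 on at least 3 arrays), a trended and robust fit, array weights, the replicate block, all probe sets, 6-array fits, an adjusted p under 0.01 and each array left out.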

Additional observations from a re-analysis of the deposited data

Results flagged for a closer look

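The LPS response differed between the genotypes, by the test of the difference itself in limma, for 2 of the 8 ligand and receptor genes and for 2 other genes of the lists described here. For Csf2 the difference, knockout minus wild type, was -4.78 on the log2 scale (adjusted p = 2.62e-08). For Csf3r it was -0.85 (adjusted p = 0.0361), and it was called in 3 of the 12 fits without 1 array. Klf4, a transcription factor gene, had a difference of 1.33 (adjusted p = 0.0361) and was called in 4 of 12 such fits. Mertk, a macrophage marker gene that encodes a receptor for dying cells, had a difference of 1.27 (adjusted p = 0.0053) and was called in 12 of 12. With LPS it was higher in knockout, at 4351 ± 331 against 1793 ± 289 (SD, n = 3 each; difference 1.29, limma adjusted p = 1.03e-04), while without LPS it was 2909 ± 240 and 2872 ± 144. Groups of 3 arrays were not tested for outliers.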

How the results depend on the processing

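The number of ligand and receptor genes called in the difference of LPS responses was 2, and 1 with arrays centred on the 75th percentile, with the replicate block or at an adjusted p under 0.01 (1 to 3 with each array left out). Csf3 between the genotypes under LPS was -3.67 but not called with the 6 LPS arrays only (adjusted p = 0.0660), and its difference of responses became called with array weights (-2.97) and without both knockout arrays numbered 2 (-2.36), and ran from -4.11 to -2.34 with each array left out. Leaving out both of those arrays, which was chosen after seeing the data, turned the sign of Csf1r (-0.0024) and Csf2rb2 (0.087) between the genotypes under LPS, of Csf1 without LPS (-0.074; -0.022 with array weights), and of Csf1r (-0.020) and Csf2rb2 (0.17) in the difference of responses. The last pair also turned for Csf1r with median centring (-0.033), quantile normalization (-0.016) and array weights (-0.043), and for Csf2rb2 at the 75th percentile (0.059), as did Il3 under LPS with array weights (-0.075). None of these was called, and the cause was not tested. With each array left out, signs turned within these ranges: between the genotypes under LPS, Csf1 -0.30 to 0.10, Csf1r -0.0024 to 0.11, Csf2rb2 -0.27 to 0.087, Il5 -0.20 to 7.32e-04 and Il3 -0.012 to 0.094; without LPS, Csf1 -0.074 to 0.18; in the difference of responses, Csf1 -0.34 to 0.059, Csf1r -0.058 to 0.055 and Csf2rb2 -0.15 to 0.21; and for LPS in wild type, Timp3 -0.029 to 0.36. The replicate block over all 12 arrays, beside Csf3r (-0.85, adjusted p = 0.0672) and Csf2ra in knockout, changed no other member's call; on the 6 knockout arrays it added Csf1. Between the genotypes under LPS, 40.2% of called genes were higher, and 52.6% at the 75th percentile; for the difference of responses, 40.3% and 55.6%; quantile normalization gave 44.5% for LPS in wild type against 34%. Intensities near the lower limit, such as those of Csf2 in 3 of the 4 groups, may understate a fold change.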

Other observations

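Csf2 and Csf3 messages carry AU-rich elements, through which RNA-binding proteins speed or slow their decay. Of 11 genes listed as regulators of message decay, not all of which act through these elements, 4 were called higher and 2 lower with LPS in wild type. Of all genes, 9.53% and 18.5% were. Zc3h12a, which encodes the RNA-cutting enzyme regnase-1, rose by 2.14 (limma adjusted p = 6.34e-07), and Rc3h2 (0.65) and Elavl1 (0.55) rose less, while Zfp36l2 had a difference of -1.63. Rc3h1 (0.40) and Tia1 (-0.44), named after their values were seen in this comparison, complete the 6. Between the genotypes under LPS, 2 of the 11 were higher and 1 lower in knockout, where 3.28% and 4.87% of all genes were. Zfp36, which encodes the decay factor tristetraprolin, was 3786 against 2333 (difference 0.73, adjusted p = 0.0196), and Zfp36l2 was higher by 0.56 (adjusted p = 0.0269). Zfp36l1, its relative, was 468 ± 251 in knockout and 1462 ± 146 in wild type (SD, n = 3 each; difference -1.84, limma adjusted p = 0.0191). All 3 calls were lost without LPS-treated wild-type replicate 1 or 3, which left 0 called. Tia1, at -0.51, was not called between the genotypes (adjusted p = 0.0652). Their part in the levels of Csf2 and Csf3 was not tested.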
